A study of Mus musculus with 2 samples.

Results

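Solute carriers are membrane proteins that move glucose, amino acids, metals, nucleosides, vitamins and ions across the plasma membrane and the membranes of organelles. Their expression was described here in primordial germ cells (PGCs) of the mouse, from which the gametes arise, at embryonic day 9.5. Members were the genes of the table whose symbols begin with Slc, a family number, the letter a and a member number, or with Slco. The mitochondrial SLC25 family and Slc22a18 were not members. The rule found 144 members of 18877 genes, of which 139 are carriers. The other 5 matched by name only and were kept apart. They are 2 scaffold proteins, an adaptor protein named for an anion exchanger and 2 genes named for lying opposite a carrier gene. In GENCODE M21, 316 symbols fit the rule, and the remaining symbols were not analysed here.

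RNA-seq was performed on 2 samples of 1 group, E9.5 PGCs of strain C57BL6, untreated and isolated by the carbohydrate antigen SSEA1 on their surface. The methods describe female embryos and a sort by SSEA1 with CD61 or by SSEA1 alone, so that a sample is a pool of sorted cells rather than 1 cell type known to be pure. The study calls the samples biological replicates, and the labels do not say whether they came from separate litters. Values are TPM, a relative abundance that corrects for gene length, so that a comparison between genes depends on the exonic length used for each. Reads recovered from the table summed to 15912532 in replicate 1 and 5458679 in replicate 2. All 8 PGC markers were detected in both replicates, led by Dppa5a and by Dppa3 at 5044 ± 44.1 TPM (mean ± SD, n = 2, as for all values given so below). Embryonic globins of red blood cells were also present, with Hba-x at 2198 ± 188 TPM. The 6 macrophage markers summed to 25.6 and 12.7 TPM in replicates 1 and 2. With 1 group, no test between conditions was possible, and all values below are descriptions. In bulk samples, fewer cells of a type and less RNA per cell cannot be told apart.

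Carriers work in systems. Facilitative glucose transporters of the SLC2 family let glucose flow down its gradient, and SLC16 carriers move lactate and pyruvate with a proton. Amino acid exchangers of the SLC7 family need a heavy chain, SLC3A2 or SLC3A1, to reach the membrane. SLC39 proteins bring zinc into the cytosol and SLC30 proteins take it out, into vesicles or out of the cell. Nucleotide sugar carriers of the SLC35 family supply the Golgi with the building blocks of glycans, among them the carbohydrate antigen SSEA1 by which PGCs are sorted.

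Of the 144 members, 75 were detected, that is, both replicates had 1 TPM or more. This is 52.1% against 60.0% of all genes in the table. A further 22 reached this level in 1 replicate and 47 in neither. A mean TPM of at least 10 was reached by 19 members, or 13.2%, against 27.3% of all genes. The median level of the members on the log2(TPM + 1) scale was 1.31 in replicate 1 and 1.26 in replicate 2, and that of all genes was 1.89 and 1.85. Expression was concentrated in few members. The 10 highest held 63.3% of the members' summed mean TPM and the 20 highest held 76.3%. Slc24a5 alone held 32.4%, and its level cannot be told apart from that of a neighbouring gene, as shown next. Over the other 143 members the 10 highest held 48.3%. Of 20 adjacent pairs in the order of the highest 21 members, the ranges of both replicates were apart in 3, so most neighbours in the order could not be ranked. The 3 pairs were Slc24a5 above Slc16a1, Slc16a1 above Slc39a1, and Slc39a6 above Slc39a10. In replicate 2 the last pair had 14.2 and 13.8 TPM with Poisson intervals that overlapped, so its order is not firm.

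**Figure D1:**
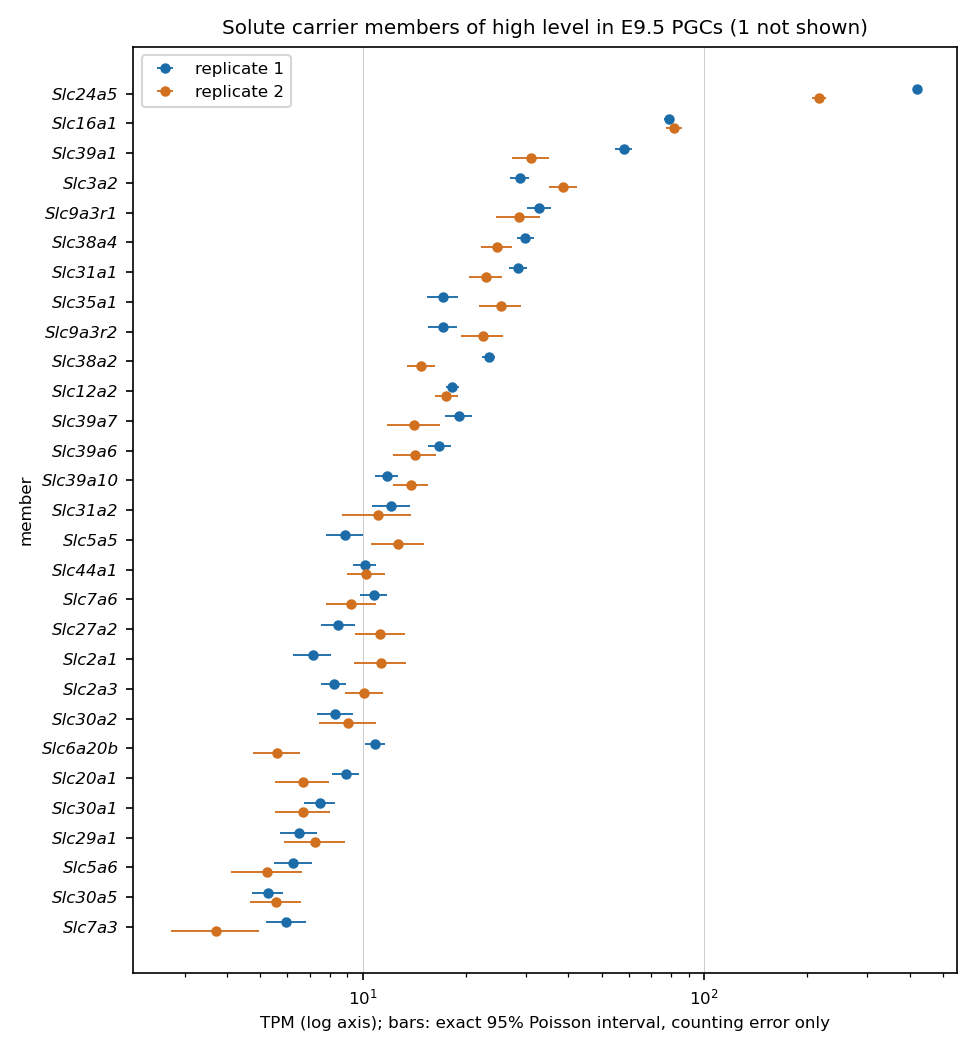
TPM of the members with the highest means, 1 of them not shown, on a log axis, with a point for each replicate and a bar for the exact 95% Poisson interval of its recovered reads. Slc24a5 lies furthest right, at 419 and 217 TPM, and Slc16a1 follows with both points close together at 78.7 and 81.6 TPM.

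The highest member, Slc24a5, cannot be separated from its neighbour on the opposite strand. Slc24a5 encodes a calcium exchanger known from the melanosome, the pigment organelle. The gene (ENSMUSG00000035183.14) lies at chr2:125068124-125088677 on the plus strand of GRCm38. It was listed at 419 TPM in replicate 1 and 217 TPM in replicate 2, with 9275 and 1688 recovered reads. Of its 2330 exonic bases, 921, or 39.5%, are also exonic in Myef2, a gene of a nucleic acid-binding repressor. Myef2 was listed at 169.9 and 87.9 TPM, with 9586 and 1745 reads. The reads of Slc24a5 were thus 96.8% and 96.7% of those of Myef2, and the TPM ratio was 2.46 in both replicates although both genes were lower in replicate 2. How many reads were counted for both genes is not given, and the expression of Slc24a5 itself cannot be told apart from that of Myef2. Pigment genes, a list chosen after the values were seen, had lower levels. Mlana was at 14.1 ± 3.67 TPM, Rab27a, a vesicle transport GTPase not limited to pigment cells, at 10.6 and 9.48 TPM, and Dct at 3.35 ± 0.152. Hps1 was at 0.629 ± 0.0504, and Pmel, the melanosome fibril protein, had 0.459 and 0.131 TPM. The melanosomal carrier Slc45a2 had 1.02 and 0 TPM, Rab38 had 1.33 and 0 TPM, and Mitf had 0.0170 and 0.821 TPM. Without Slc24a5 the members summed to 688 and 636 TPM, compared with 1107 and 852 TPM with it.

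A similar case was Slc6a20b, a sodium-coupled carrier of imino acids such as proline, which had 10.9 and 5.61 TPM. It shares 1800 of 8538 exonic bases, or 21.1%, with Sacm1l, a phosphoinositide phosphatase gene on the opposite strand. The 881 and 160 reads of Slc6a20b were 96.9% and 96.4% of the 909 and 166 reads of Sacm1l. Its paralog Slc6a20a, of which 9.58% of the 100-base stretches occur in Slc6a20b, had 2 reads and 1 read. In all, 48 members shared exonic bases with another gene, 29 of them detected. For 15 pairs both genes had at least 10 reads in both libraries, and only the pairs of Slc24a5 and of Slc6a20b had read numbers within 10% of each other in both. Slc39a7, a zinc carrier of the endoplasmic reticulum and Golgi, shares 80.7% of its exonic bases with Gm20427, a transcript on the same strand that had 541 and 154 reads against 468 and 122 for Slc39a7.

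**Figure D2:**
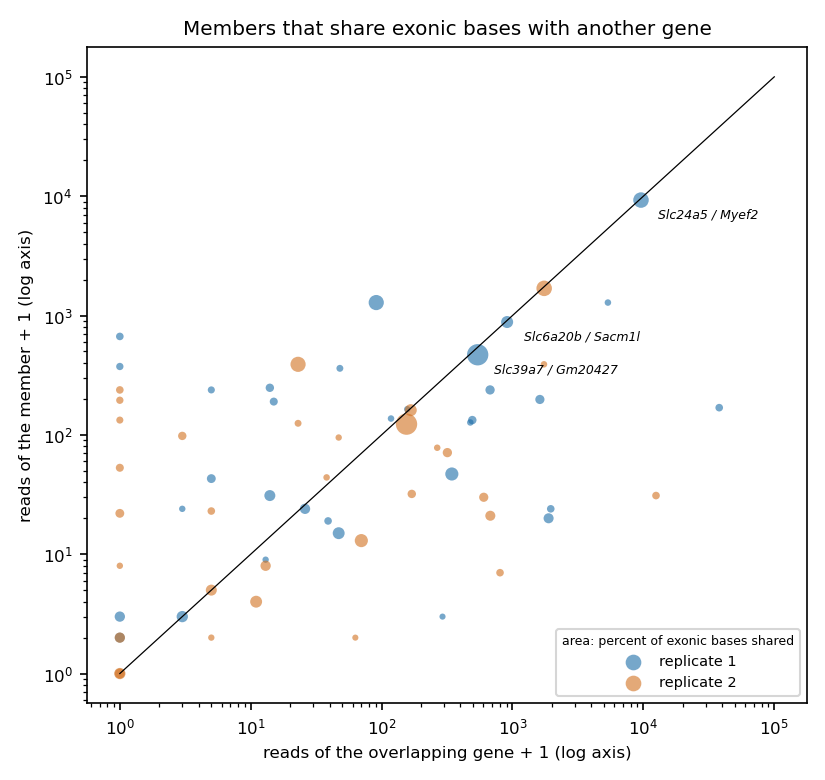
Recovered reads plus 1 of each member against those of the gene with which it shares exonic bases, on log axes, with 1 point for each pair and replicate, a line of equality and a point area that grows with the percent of exonic bases shared. Slc24a5 and Myef2, with 9275 and 9586 reads in replicate 1, lie on the line in both replicates, as do Slc6a20b and Sacm1l, while most pairs lie away from it.

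The promoters of 3 members with high levels show how different the sequences upstream of them are. They are printed because these members, which share no exonic bases with another gene, ranged from CpG-rich to CpG-poor. Each sequence is the 250 bases before the RefSeq transcript start on GRCm38.p6, written in the direction of transcription, with CpG dinucleotides, the sites of DNA methylation, in capitals. Slc16a1 is at chr3:104638414-104638663 on the plus strand with 37 CpG, and Slc38a2 is at chr15:96699729-96699978 on the minus strand with 30. Slc38a4 is at chr15:97055957-97056206 on the minus strand with 3.
Slc16a1: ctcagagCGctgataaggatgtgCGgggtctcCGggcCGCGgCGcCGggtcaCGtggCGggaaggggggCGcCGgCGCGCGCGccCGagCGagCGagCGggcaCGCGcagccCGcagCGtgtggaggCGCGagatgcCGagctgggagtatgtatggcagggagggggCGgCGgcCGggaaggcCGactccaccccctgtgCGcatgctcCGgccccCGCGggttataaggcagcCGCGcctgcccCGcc
Slc38a2: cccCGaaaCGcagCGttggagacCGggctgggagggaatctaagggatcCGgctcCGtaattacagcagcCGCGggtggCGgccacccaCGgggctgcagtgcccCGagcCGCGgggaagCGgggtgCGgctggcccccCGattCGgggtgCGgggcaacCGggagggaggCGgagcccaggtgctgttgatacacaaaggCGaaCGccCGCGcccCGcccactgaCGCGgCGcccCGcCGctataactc
Slc38a4: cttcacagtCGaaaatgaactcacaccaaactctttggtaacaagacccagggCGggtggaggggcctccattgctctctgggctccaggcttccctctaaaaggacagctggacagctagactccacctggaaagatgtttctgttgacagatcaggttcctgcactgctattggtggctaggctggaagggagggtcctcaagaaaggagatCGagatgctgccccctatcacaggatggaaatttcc

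Slc38a2 and Slc38a4 are neighbours on chromosome 15 and encode related sodium-coupled carriers of small neutral amino acids. Slc38a4 is known as an imprinted gene, expressed from the paternal allele in mouse tissues, and alleles were not measured here. Slc38a4 had 29.9 and 24.6 TPM, and Slc38a2 had 23.3 and 14.8 TPM. The TPM ranges of the 2 genes did not overlap and Slc38a4 was 1.28 and 1.67 times as high. Slc38a2 had more reads in both libraries, 1961 and 437 against 1211 and 351, over 8838 against 4261 exonic bases. In TPM the gene with 3 CpG before its start was thus not the lower of the pair, an order that rests on the exonic lengths used.

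A RefSeq promoter window, 250 bases before to 50 bases after the start, was matched for 111 of the 144 members. In this window the 58 detected members had a median of 23 CpG and the other 53 had 18. Among all genes the corresponding medians were 22 for 7342 genes and 17 for 3497 genes. At least 10 CpG were present in 82.8% of the detected members and 79.2% of the others, compared with 87.0% and 68.0% of all genes. Spearman's rho between CpG number and level was 0.15 across the 111 members and 0.15 across 10839 genes, which share the 2 libraries and are not independent replicates. Slc4a4, a sodium bicarbonate carrier, had the most CpG of any member, 50, and was at 0.418 and 0 TPM.

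**Figure D3:**
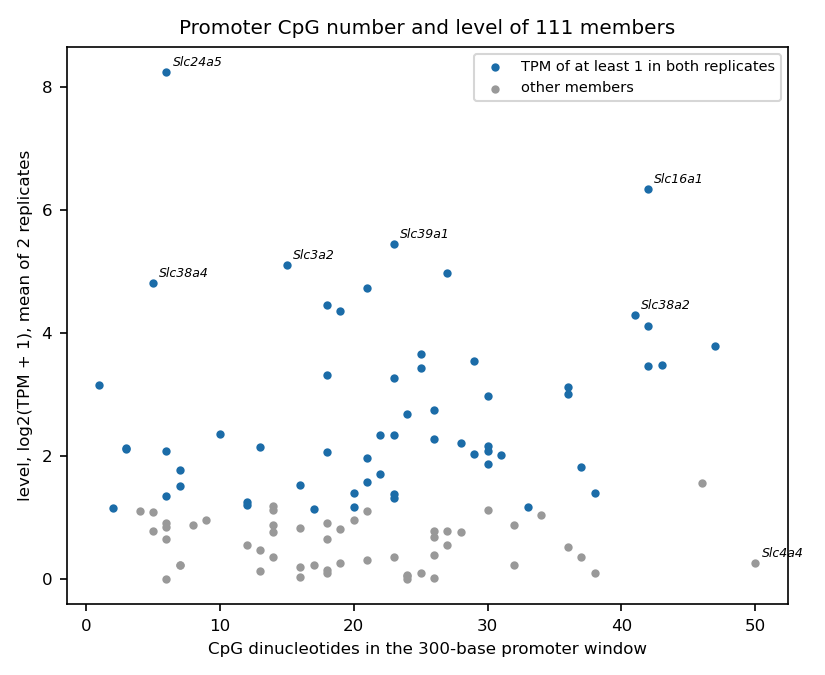
Number of CpG dinucleotides in the 300-base promoter window (x axis) against level as log2(TPM + 1), mean of 2 replicates (y axis), for 111 members, with detected members in blue and the others in grey. Slc38a4 lies on the left with 5 CpG and Slc16a1 and Slc38a2 on the right with 42 and 41, and the level of Slc24a5, with 6 CpG, cannot be told apart from that of Myef2.

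Among the 4 monocarboxylate and dicarboxylate carriers with a row, the RNA of Slc16a1 was highest. Other SLC16 carriers had no row, which was not read as absent expression. Slc16a1, which encodes MCT1 (ENSMUSG00000032902.1, chr3:104638668-104658462, plus strand), had 78.7 TPM from 3310 reads and 81.6 TPM from 1207 reads, 80.1 ± 2.05. It was above 92.4% of all genes in the table and shares no exonic bases with another gene, and its Poisson intervals of 76.0 to 81.4 and 77.0 to 86.3 TPM overlapped. Slc16a4, a monocarboxylate carrier of less defined substrates, had 4.61 and 2.39 TPM. Slc16a10, which transports aromatic amino acids and thyroid hormone, was at 0.305 ± 0.0869, and Slc16a9 had 1 read in replicate 1 and 0 in replicate 2. MCT1 reaches the membrane with basigin or embigin. Bsg was at 43.1 ± 11.6 TPM and Emb at 20.6 ± 0.676, so that both genes of its known chaperones were detected. Of other accessory chains, Cltrn, which accompanies amino acid carriers, had 2.45 and 0.775 TPM, and Cd44 was at 0.0621 ± 0.0878.

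Of 16 members for glucose, other sugars and inositol, 7 were detected and none reached a mean TPM of 10. The highest were Slc2a1 and Slc2a3, which encode the glucose transporters GLUT1 and GLUT3. Slc2a1 had 7.11 and 11.3 TPM and Slc2a3 had 8.22 and 10.1 TPM. Their order in TPM changed between replicates, with a ratio of Slc2a3 to Slc2a1 of 1.16 in replicate 1 and 0.895 in replicate 2. Neither was thus the higher in TPM. Slc2a3 had more reads in both libraries, 566 and 244 against 237 and 132, over 7245 against 3506 exonic bases. Poisson intervals of Slc2a1 did not overlap between replicates, 6.23 to 8.08 against 9.42 to 13.4 TPM. Slc45a4, a proton-coupled sugar carrier, was at 4.63 ± 0.808 and Slc50a1, a glucose exporter of the SWEET type, at 4.23 ± 1.94. Slc2a12, which encodes GLUT12, had 4.89 and 2.05 TPM and was among the members lowest in replicate 2 relative to replicate 1. The lowest were Slc2a13, a proton-inositol carrier at 0.0943 ± 0.133, and Slc37a4, the glucose-6-phosphate carrier of the endoplasmic reticulum at 0.0708 ± 0.0480 with 1 read in each library.

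Amino acid carriers were the largest group, with 31 members, 16 of them detected and 4 at a mean TPM of at least 10. Slc3a2, the heavy chain 4F2hc, had 28.8 and 38.6 TPM. Its light chains Slc7a5, Slc7a6, Slc7a7 and Slc7a10 summed to 20.5 and 15.5 TPM, and Slc3a2 was at 1.41 and 2.49 times this sum, which covers only the light chains with a row in the table. The light chain with the highest level was Slc7a6, which exchanges arginine and lysine for neutral amino acids, with 10.8 and 9.23 TPM. Slc7a5, the leucine transporter LAT1, was at 4.46 ± 1.40, and Slc7a7, of the same exchange type as Slc7a6, at 3.49 ± 0.984. Slc7a10 was among the lowest with 2 reads and 0. The second heavy chain, Slc3a1, and its partner Slc7a9, which together take up cystine in the kidney and gut, were at 1.85 ± 0.415 and 1.56 ± 0.302, a ratio of 1.19 ± 0.0365. Slc3a1 shares 26.5% of its exonic bases with Prepl on the opposite strand.

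Other amino acid carriers differed between replicates. Slc1a3, a glutamate carrier, had 2.44 and 4.48 TPM and was among the members highest in replicate 2 relative to replicate 1, while Slc1a5, the glutamine exchanger ASCT2, had 2.77 and 0.932 TPM and was among the members lowest in replicate 2 relative to replicate 1. Slc7a15 had 7 reads in replicate 1 and 20 in replicate 2, which gave a mean of 1.12 ± 1.24 TPM. Slc38a11 was the lowest member of the group, with 2 reads and 0.

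Zinc carriers were present on both sides. Of 11 SLC39 importers 5 were detected, and of 7 SLC30 exporters 6 were. The summed level of the importers was 113 and 81.6 TPM and that of the exporters 33.6 and 29.1 TPM, a ratio of 3.37 and 2.81. The importers act in different membranes, and 1 of them held much of the sum. Slc39a1, the plasma membrane importer ZIP1, had 58.0 TPM in replicate 1 and 31.0 in replicate 2, with 1304 and 245 reads and Poisson intervals apart, and 14.8% of its 100-base stretches occur in the pseudogene Slc39a1-ps. Slc39a7 was at 16.6 ± 3.53, Slc39a6 at 15.5 ± 1.81 and Slc39a10, a plasma membrane importer, with 11.7 and 13.8 TPM. Slc39a6 and Slc39a10 are known to form a pair, and the Poisson intervals of each overlapped between replicates. The lowest importers were Slc39a13 at 0.433 ± 0.0907 and Slc39a4, the importer of the gut epithelium, at 0.249 ± 0.0793. Slc39a2 had 0.549 and 1.91 TPM and was among the members highest in replicate 2 relative to replicate 1.

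Among the exporters, Slc30a2, which loads zinc into vesicles, was at 8.68 ± 0.544, Slc30a1, the exporter of the plasma membrane, at 7.07 ± 0.558 and Slc30a5, of the secretory pathway, at 5.42 ± 0.221. Slc30a6, with which Slc30a5 forms a complex, was at 3.31 ± 1.56. The lowest were Slc30a4, with 3.49 and 0.928 TPM, and Slc30a7, at 1.59 ± 0.275. Zinc-binding and zinc-responsive partners were expressed. The metallothioneins Mt1 and Mt2 were at 164 ± 1.04 and 104 ± 7.99, and Mtf1, the metal-sensing transcription factor, was at 5.23 ± 0.0619.

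For iron, copper, magnesium and heme, 5 of 8 members were detected. The copper importer Slc31a1 had 28.5 and 22.9 TPM and its relative Slc31a2 had 12.1 and 11.0 TPM. Slc11a2, the iron importer DMT1, was at 2.95 ± 0.704. Slc11a1, a metal carrier of phagocytes, had 3.44 and 1.61 TPM, and Slc40a1, the iron exporter ferroportin, was at 1.65 ± 0.497. Beside these values, all 6 macrophage markers were lower in replicate 2. Fcer1g had 11.0 and 6.16 TPM, Cd68 had 4.52 and 2.62, and Csf1r had 4.29 and 2.02. C1qb had 1.16 and 0 TPM, from 12 reads and 0. The endothelial markers Emcn, Kdr, Tek and Cldn5 were also lower in replicate 2, and Pecam1 was higher. The part of such cells in the levels of Slc11a1 and Slc40a1 was not tested. The lowest of the 8 members were Slc48a1, a heme carrier at 0.207 ± 0.139, and Slc41a2, a magnesium carrier with 0 reads and 1 read.

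Of 15 partner genes of iron, copper and zinc handling with a row in the table, 11 were detected. Ferritin chains led, with Ftl1 at 583 ± 60.7 and Fth1 at 426 ± 13.4. The copper chaperone Atox1 was at 261 ± 14.3, while the copper pumps to which it delivers, Atp7b and Atp7a, were at 1.70 ± 0.654 and 1.04 ± 0.744. Transferrin receptor Tfrc was at 20.4 ± 1.36, and the iron regulatory proteins Ireb2 and Aco1 were at 22.3 ± 2.66 and 6.29 ± 0.325. The heme exporter Flvcr1 was at 8.72 ± 1.78 and its relative Flvcr2 at 1.09 ± 0.145. Ncoa4, the ferritin receptor of autophagy, was at 0.901 ± 0.235, and the ferroxidase Heph had 0.975 and 0.0781 TPM. Tfrc, Slc11a2, Ftl1 and Fth1, which serve iron uptake and storage, had higher levels than the exporter Slc40a1 in both replicates. The heme exporter Flvcr1 was in turn above Slc11a2 in both, and the part of red blood cells in these levels was not tested.

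Nucleoside and nucleobase carriers had 2 of 7 members detected, or 28.6%, against 52.1% of all members and 60.0% of all genes. With only 7 genes, this share was not read as a trait of the group. Slc29a1, the equilibrative carrier ENT1, had 6.48 and 7.24 TPM, and its Poisson intervals overlapped. Slc29a2, the second equilibrative carrier, had 2.34 and 1.09 TPM. The sodium-coupled carriers were Slc28a1, with 2.03 and 0.507 TPM, and Slc28a3, at 0.839 ± 0.151. Slc28a1 was among the members lowest in replicate 2 relative to replicate 1, with 57 and 5 reads. The lowest were Slc43a3, a nucleobase carrier at 0.535 ± 0.377, and Slc29a3, a lysosomal carrier with 12 reads and 0.

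Nucleotide sugar and acetyl-CoA carriers had a median level of 2.07 ± 0.0847 on the log2(TPM + 1) scale, with 4 of 6 detected. It was 0.53 over Slc35a5 and Slc35a2 alone, the members that share no exonic bases with another gene. Slc35a1, which brings CMP-sialic acid into the Golgi, had 17.1 and 25.3 TPM, with Poisson intervals apart. Slc33a1, the acetyl-CoA carrier, was at 4.14 ± 1.41, Slc35a3, for UDP-N-acetylglucosamine, at 3.47 ± 0.0512 and Slc35a4 at 3.09 ± 0.281. Slc35a5 was at 0.696 ± 0.0442. Slc35a2, the UDP-galactose carrier on the X chromosome, had 0.423 and 0.0633 TPM, from 19 reads and 1 read. Slc35c1, the GDP-fucose carrier, is no member because of its letter, and it had 0.353 and 0.0913 TPM. Of the carriers for the sugars of the SSEA1 antigen, Slc35a3, for N-acetylglucosamine, was detected, while Slc35a2 and Slc35c1, for galactose and fucose, were below 1 TPM in both replicates.

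Vitamin and choline carriers had 5 of 10 members detected. Slc44a1, a choline carrier, had 10.1 and 10.2 TPM. Slc5a6, for biotin and pantothenate, was at 5.75 ± 0.708, Slc19a2, for thiamine, at 3.70 ± 1.05 and Slc23a2, for vitamin C, at 2.56 ± 0.853. Slc23a1, the vitamin C carrier of epithelia, and Slc46a1, the proton-coupled folate carrier, were lowest at 0.239 ± 0.0761 and 0.282 ± 0.0128. Slc19a1, the reduced folate carrier, had 20 reads in replicate 1 and 34 in replicate 2, or 0.453 and 2.19 TPM, and was among the members highest in replicate 2 relative to replicate 1.

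Of 5 cation-chloride cotransporters, 3 were detected. Slc12a2, the importer NKCC1, was at 17.9 ± 0.534. The exporters Slc12a4 and Slc12a7 were at 1.25 ± 0.308 and 0.717 ± 0.113, and Slc12a1, the kidney importer NKCC2, was at 0.718 ± 0.0858. For inorganic anions, Slc5a5, the sodium-iodide carrier of the thyroid, had 8.84 and 12.7 TPM from 246 and 124 reads and shares no exonic bases with another gene. The phosphate importers Slc20a1 and Slc20a2 were at 7.77 ± 1.59 and 2.19 ± 0.164. The sulfate carriers Slc26a2, Slc26a11 and Slc13a4 were at 1.80 ± 0.560, 1.22 ± 0.615 and 0.808 ± 0.302.

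Bicarbonate and proton carriers had a median of 0.68 ± 0.0182 on the log2(TPM + 1) scale, or 0.86 without members that share exonic bases, with 3 of 9 detected. Slc9a8, a proton exchanger of the Golgi, was at 2.25 ± 0.114, Slc4a7, a bicarbonate importer, at 1.22 ± 0.0892 and Slc4a11 at 0.773 ± 0.260. Slc9a7 had no read in either library, for which the limits, taken as 3 reads, were 0.0826 and 0.235 TPM. Among organic ion carriers, 4 of 11 were detected. Slc10a7 was at 3.97 ± 1.63, Slc22a4, for ergothioneine and carnitine, at 3.10 ± 0.571 and Slco4c1 at 2.97 ± 1.14. Slc10a3 had 0.988 and 2.96 TPM and was among the members highest in replicate 2 relative to replicate 1. Slc22a21, of which 10.6% of the 100-base stretches occur in Slc22a5, had 1 read in each library, and Slc47a1, a drug exporter of kidney and liver, had none, with limits of 0.0933 and 0.265 TPM.

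Fatty acid carriers had 1 of 4 detected. Slc27a2, an acyl-CoA synthetase of peroxisomes and the endoplasmic reticulum, had 8.43 and 11.2 TPM, while Slc27a3, Slc27a1 and Slc27a4 were at 0.940 ± 0.177, 0.763 ± 0.00829 and 0.703 ± 0.252. The peptide carriers Slc15a4, of lysosomes, and Slc15a1, of the gut, had 1.76 and 1.24 TPM and 1.18 and 1.41 TPM. The vesicular monoamine carrier Slc18a2, the only member of the neurotransmitter group, was at 1.39 ± 0.186. Of the members that are not carriers, Slc9a3r1 and Slc9a3r2, scaffold proteins that bind ion exchangers, were at 30.7 ± 2.93 and 19.8 ± 3.74. Slc4a1ap was at 4.21 ± 1.44, Slc7a6os at 3.31 ± 1.07, and Slc36a3os had no read, with limits of 0.607 and 1.73 TPM.

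**Figure D4:**
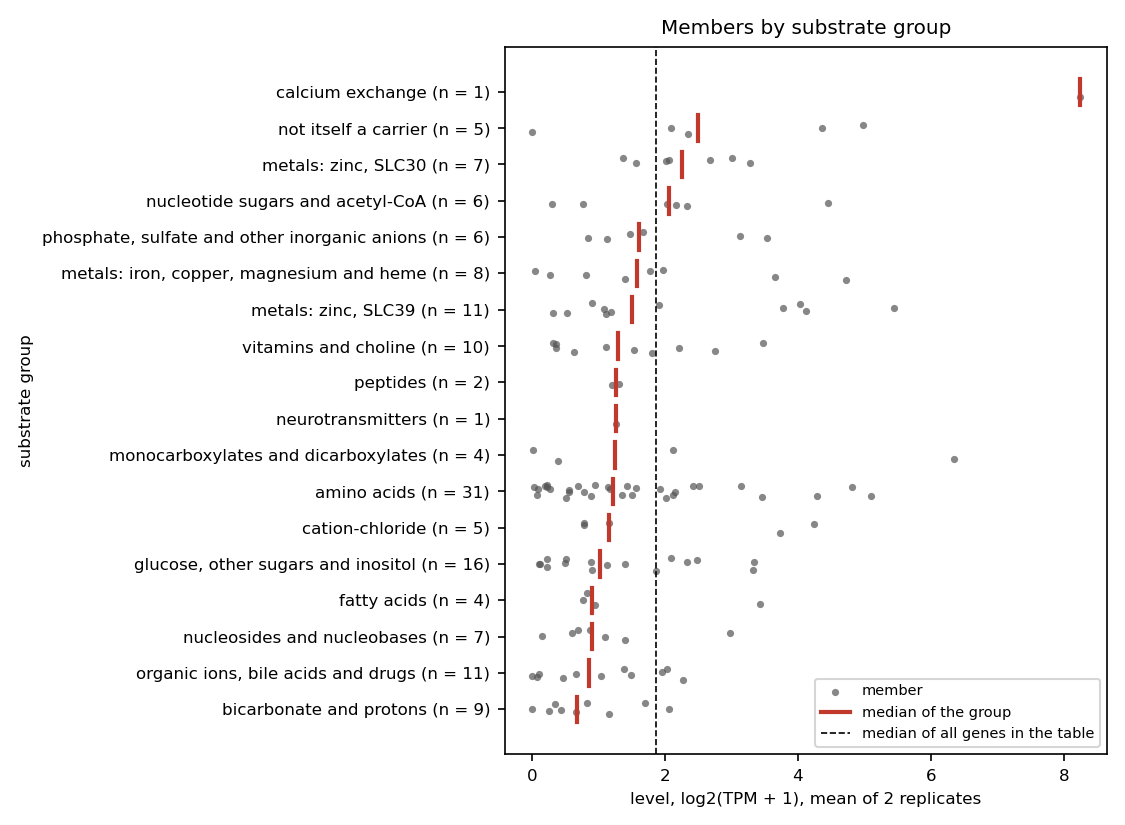
Level of each of the 144 members as log2(TPM + 1), mean of 2 replicates (x axis), by substrate group (y axis), with the median of each group in red and the median of all genes, 1.87, as a dashed line. Single members lie far to the right of their group's median, such as Slc16a1 at 80.1 TPM among the monocarboxylate carriers and Slc27a2 at 9.83 TPM among the fatty acid carriers.

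Many carriers use the sodium gradient made by the sodium-potassium pump. Its beta subunit genes Atp1b3 and Atp1b1 were at 65.5 ± 11.3 and 27.2 ± 0.330, and Atp1b2 was at 0.0258 ± 0.0364. Of 15 carriers with other names, 7 were detected. Slc35b1, an ATP carrier of the endoplasmic reticulum, was at 39.5 ± 0.585 and Slc35f2 at 15.7 ± 2.07. Spns1, Slc35b4, Slc35d1, Mfsd10 and Slc35e1 lay between 4.99 ± 0.709 and 1.89 ± 0.446. Xpr1, a phosphate exporter, was at 1.12 ± 0.456 and Slc35c2 at 1.05 ± 0.460. Mfsd12, Spns2, Mfsd8, Slc8b1 and Ank were below 1 TPM in both replicates, from 0.601 ± 0.424 for Mfsd12 to 0.285 ± 0.0509 for Ank.

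By place in the cell, 35 members were on a list of organelle carriers, of which 17 were detected, and 104 carriers were outside it, of which 54 were detected. Without Slc24a5, the organelle carriers had a median level of 1.26 ± 0.191 on the log2(TPM + 1) scale and the others 1.24 ± 0.0411, a difference smaller than the spread between replicates. Of carriers typical of differentiated tissues most had no row, as was the case for symbols that fit the rule, of which 144 of 316 had one. Why a gene has no row is not given, so a missing row was not read as absent expression. Of a list of 15 neuronal carriers 2 had a row, Slc18a2 and the glycine carrier Slc6a5, which had 1.05 and 0.0415 TPM. Of 23 kidney, intestine and liver carriers 5 had a row, 3 of them detected, and none reached a mean of 2 TPM. Of 7 testis carriers none had a row, and these were not analysed here. Of 6 members on the X chromosome 2 were detected, and Slc7a3, a carrier of arginine and lysine, was at 4.83 ± 1.58.

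Replicate error was then examined for the members. Across the 144 members Pearson's r between replicates on the log2(TPM + 1) scale was 0.95 and Spearman's rho was 0.90, compared with 0.96 and 0.90 across all genes, and genes are not independent replicates. A difference of more than 2-fold in TPM + 1 was found in 5 members, and in 30 with a pseudocount of 0.1. Of the 5, Slc30a4, Slc45a2 and Slc28a1 were higher in replicate 1, as were 5.89% of all genes. Slc7a15 and Slc19a1 were higher in replicate 2, as were 4.31%. All 5, picked for a large difference, had Poisson intervals that were apart. Other members, among them Slc1a5 and Slc10a3, differed more than 2-fold in TPM itself. Over all members 97 had intervals that overlapped and 47 did not. No share over all genes is given for this count, so it was not read as a trait of the members. In replicate 2, 83 members were lower and 58 higher, with a median difference of -0.11 against -0.01 for all genes. For members with at least 500 reads over both libraries the median absolute difference was 0.28 (24 members) against 0.16 for all genes. With 100 to 500 reads it was 0.39 (47 members) against 0.30, and with 20 to 100 reads it was 0.34 (47 members) against 0.39. With 1 to 20 reads it was 0.14 (23 members) against 0.51. At least 10 reads in both libraries were available for 98 members and at least 100 for 31, whereas 19 had under 10 in both. Zero reads in both libraries were found for 3 members, or 2.08%, against 7.81% of all genes.

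**Figure D5:**
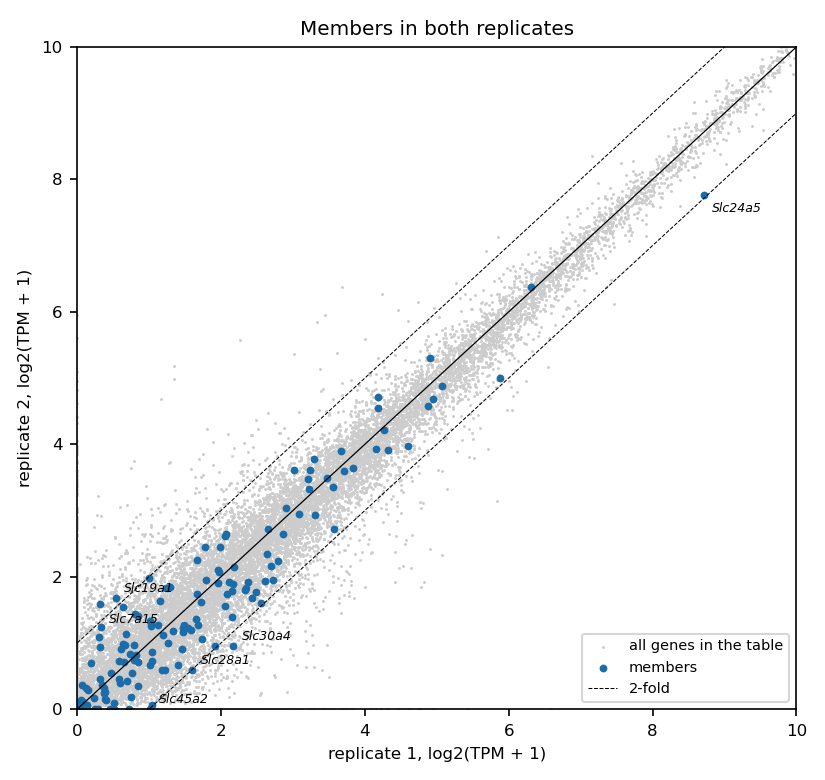
Level as log2(TPM + 1) in replicate 1 (x axis) and replicate 2 (y axis) for all genes up to a level of 10 in grey and the 144 members in blue, with a line of equality and dashed lines at a difference of 2-fold in TPM + 1. The 5 members beyond the dashed lines all lie at low levels, and Slc24a5, at 8.71 and 7.77, lies just inside the lower one.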

How the data were processed

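RNA-seq was performed on 2 samples of E9.5 PGCs. The authors aligned reads to mm10 with Hisat2, counted them per gene with featureCounts and deposited TPM. Strand handling and the treatment of reads in several genes are not given in the sources used here. The methods name Smart-seq2 and the labels another library kit. The submitters' processing notes list Bowtie2, HISAT2, RSEM, R 3.4.2 and DESeq2.

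Symbols were matched to GENCODE M21 on GRCm38 (18748 of 18877 genes). Reads were recovered as whole multiples in TPM times exonic length. Of values under 50 reads, 96.7% and 95.8% were within 0.02 of a whole number (4% by chance), and 135 members gave whole reads within 0.05 in both libraries. The 9 others, Slc24a5, Slc39a7, Slc12a2, Slc9a3r2, Slc3a1, Slc30a6, Slc29a2, Slc18a2 and Slc37a1, have approximate read numbers. Recovery was also run on simulated data built with the same exonic lengths, which cannot show an error in those lengths. Exact 95% Poisson intervals and the limit of 3 reads for a zero cover counting error only. Levels were analysed as log2(TPM + 1), which understates differences between low genes. No p-value was computed. Promoters were taken from RefSeq (GRCm38.p6), using the window with most CpG for each gene.

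Members and lists were chosen with earlier results of these data known. The genes named were the 20 highest members, all members of groups of 6 or fewer, the 4 highest and 2 lowest of longer groups, the 5 with the largest difference between replicates in each direction (mean TPM 1 or more), and partner genes. Others are named for a shared exon, a heavy chain, a chromosome or a difference between replicates. A few genes covered by this rule are not reported here. Python 3.11.15, numpy 2.4.6, pandas 2.3.3, scipy 1.17.1 and matplotlib 3.10.9 were used.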

Additional observations from a re-analysis of the deposited data

How the results depend on the processing

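The number of detected members was 29 at a TPM of at least 5, 100 at 0.5 and 46 of the 96 members that share no exonic bases (47.9%), a choice made after seeing the data, and with 1 replicate left out it ranged from 84 to 88. With a pseudocount of 0.1 the median level was 0.62 for all members, 1.44 for metals, 0.51 for amino acids, 0.16 for glucose and -0.042 for nucleosides. With genes of a mean TPM under 1 removed it was 2.04 for all members, 1.98 for amino acids, 2.27 for glucose and 1.40 for nucleosides. Scaling without mitochondrial and short genes moved the median of all genes by 0.25 and gave 1.49 for all members, 1.41 for amino acids and 1.07 for nucleosides. Without members that share exonic bases it was 1.198 for all members, 1.37 for glucose and 0.72 for nucleosides. With 1 replicate left out it ranged from 1.26 to 1.31 for all members, 1.61 to 2.12 for metals, 1.17 to 1.26 for amino acids, 0.859 to 1.19 for glucose and 0.849 to 0.961 for nucleosides. The number of members more than 2-fold apart was 30 with a pseudocount of 0.1, 11 with that scaling and 2 among members with at least 10 reads in both libraries. The median difference between replicates was -0.22 with a pseudocount of 0.1 and -0.19 with those genes removed. The cause of these shifts was not tested. No paired analysis was possible because the series has 1 group here.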
